A study of Mus musculus with 2 samples.

Results

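The genes described here are 3 ligands and 7 receptors or coreceptors of the bone morphogenetic protein (BMP) and transforming growth factor-beta (TGF-beta) pathways, 10 of the 32285 genes counted in UV-positive lung cells. They were chosen by name: the ligands Bmp4, Bmp5 and Tgfb1, the type I receptors Acvrl1, Bmpr1a and Tgfbr1, the type II receptors Bmpr2 and Tgfbr2, and the coreceptors Eng and Tgfbr3. The UV-positive cells were sorted live from pronase and collagenase digests of lungs of wild type C57BL/6 mice aged 3 months, by their emission at 455 nm, the signal of stored retinoids. The 2 libraries of this single condition, library 1 and library 2, were made with 10x Genomics 3′ chemistry, and how many mice each held was not stated.

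The ligands of this family bind a complex of type I and type II receptors, both serine/threonine kinases, and the type II receptor activates the type I receptor, which phosphorylates SMAD proteins that act in the nucleus. Coreceptors such as endoglin (Eng) and betaglycan (Tgfbr3) bind ligand and present it to the kinases. In the lung, loss of function of BMPR2 is the best known cause of heritable pulmonary arterial hypertension, mutations in ENG or ACVRL1 cause hereditary haemorrhagic telangiectasia, a disorder of vessel formation, and TGF-beta is a central signal of fibrosis.

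Barcodes were kept when they held 200 or more genes and when mitochondrial transcripts made up no more than 10% of their counts (9634 of 9669 barcodes in library 1 and 9988 of 10050 in library 2). Each was assigned by 3 marker genes of a class, of which at least 3 unique molecular identifiers (UMIs, counted transcript molecules) had to be present for 1 class only: Col1a2, Mfap4 and Pdgfra for stromal cells, Cdh5, Pecam1 and Egfl7 for endothelial cells, Epcam, Cdh1 and Lamp3 for epithelial cells, and Ptprc, Laptm5 and Cd52 for immune cells. This gave 7645 and 7438 stromal, 56 and 360 endothelial, 930 and 101 epithelial, and 266 and 334 immune cells in libraries 1 and 2. Stromal cells with at least 3 UMIs of the proteoglycan gene Dcn were called adventitial fibroblasts (1017 and 998 cells) and those with none alveolar fibroblasts (5805 and 5545 cells). Markers outside the rule were high in the class they belong to: Plvap, Cldn5 and Emcn summed to 7387 and 5363 counts per 1000000 UMIs (CPM) in endothelial cells and to 3.31 and 5.05 CPM in stromal cells. Col1a1, Col3a1 and Ptgis summed to 2794 and 2860 CPM in stromal cells, 125.5 and 70.3 CPM in endothelial cells, 7.98 and 9.52 CPM in epithelial cells and 29.6 and 27.0 CPM in immune cells.

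The libraries differed in depth, with 48762735 UMIs in library 1 and 93970185 in library 2, and 23 barcode sequences occurred in both. Library 1 held few endothelial cells, so that 3 UMIs of a gene there stood for 25.1 CPM, and values of that class in library 1 rest on small counts. Barcodes that met the rule for more than 1 class were left out (420 in library 1 and 1640 in library 2). In library 2, 931 of these met both the stromal and the endothelial rule, and they held 48.1% of all Acvrl1 UMIs, 47.4% of Bmpr2 UMIs and 60.7% of Eng UMIs of the cells kept. In library 1, 86 such barcodes held 5.95%, 4.77% and 17.1% of these UMIs. Each level below adds up a gene's UMIs in all cells of 1 group and library and divides them by that group's UMIs. Levels are not divided by transcript length, so that levels are compared between groups for a gene and never between genes.

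In the GENCODE annotation of the mouse genome (GRCm38, the assembly also named mm10), Eng spans 32646595 to 32682669 on the forward strand of chromosome 2, where its body overlaps Fpgs on the opposite strand, and Acvrl1 spans 101128522 to 101145336 on the forward strand of chromosome 15. Bmpr2 spans 59763400 to 59879014 on the forward strand of chromosome 1. Tgfbr2 (116084293 to 116175360, reverse strand) and Bmp5 (75775364 to 75900310, forward strand) lie far apart on chromosome 9, and Bmp4 (46383520 to 46390669) and Bmpr1a (34410734 to 34503341) both lie on the reverse strand of chromosome 14. Tgfb1 spans 25687002 to 25705077 on the forward strand of chromosome 7, Tgfbr1 spans 47353222 to 47414931 on the forward strand of chromosome 4, and Tgfbr3 spans 107106570 to 107289629 on the reverse strand of chromosome 5. Genes on the opposite strand that are also in the count table overlap Bmp4, Bmp5, Acvrl1 and Bmpr1a.

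The 250 bases before the RefSeq transcription start (build GRCm38.p6) are shown for a gene of each expression pattern described below, each read 5′ to 3′ on the strand of its gene. Eng was highest in endothelial cells, Tgfb1 in immune cells, and Tgfbr2 and Bmp5 in stromal cells. Capitals mark GGAAG, the core bound by ETS factors, or CTTCC, the same core on the other strand. The windows are chr2:32646345-32646594 (Eng), chr7:25686752-25687001 (Tgfb1), chr9:116175364-116175613 (Tgfbr2) and chr9:75775115-75775364 (Bmp5).
Eng: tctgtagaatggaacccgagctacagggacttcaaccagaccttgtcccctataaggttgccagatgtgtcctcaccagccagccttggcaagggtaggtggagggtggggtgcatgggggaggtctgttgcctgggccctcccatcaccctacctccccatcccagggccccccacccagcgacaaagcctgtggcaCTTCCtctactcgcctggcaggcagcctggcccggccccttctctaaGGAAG
Tgfb1: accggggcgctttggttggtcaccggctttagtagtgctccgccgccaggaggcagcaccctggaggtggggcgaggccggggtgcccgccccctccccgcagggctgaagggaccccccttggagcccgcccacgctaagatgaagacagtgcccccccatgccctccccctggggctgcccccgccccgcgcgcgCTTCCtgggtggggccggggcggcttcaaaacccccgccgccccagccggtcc
Tgfbr2: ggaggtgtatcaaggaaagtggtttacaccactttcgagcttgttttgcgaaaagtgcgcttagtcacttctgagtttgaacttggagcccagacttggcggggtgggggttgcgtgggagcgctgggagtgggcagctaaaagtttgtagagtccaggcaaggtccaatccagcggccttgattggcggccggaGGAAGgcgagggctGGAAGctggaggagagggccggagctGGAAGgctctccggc
Bmp5: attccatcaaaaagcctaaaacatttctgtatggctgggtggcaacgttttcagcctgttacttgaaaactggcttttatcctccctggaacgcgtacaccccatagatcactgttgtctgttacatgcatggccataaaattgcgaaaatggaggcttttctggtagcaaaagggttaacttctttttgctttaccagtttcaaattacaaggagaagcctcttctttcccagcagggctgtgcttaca
The core had 2 matches before Eng, 1 before Tgfb1, 3 before Tgfbr2 and 0 before Bmp5, on either strand, and 64.1% of the 32851 mouse promoter windows of this length held at least 1. The GC box GGGCGG had 5 matches before Tgfb1 and 0 before the other genes shown, against 32.7% of windows with at least 1, and TATAAA had 0 before all 4 genes (12.4% of windows). GC content was 75.2% before Tgfb1, 62.4% before Eng, 58.4% before Tgfbr2 and 42.8% before Bmp5. These matches describe letters in a window and not binding. Promoter windows of Acvrl1 and Tgfbr3 were not analysed here.

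Summed UMIs of the classes were compared in edgeR with a quasi-likelihood test of both directions and a term for the library, and Benjamini-Hochberg adjustment covered the 11832 genes that passed the filter on low counts, which included all 10 genes. All adjusted p-values below are from these fits, an adjusted p under 0.05 was called, and fold changes are given on the log2 scale with their standard error (SE). The genes split into 3 patterns. Acvrl1, Bmpr2 and Eng were highest in endothelial cells, Bmp4, Bmp5, Bmpr1a, Tgfbr2 and Tgfbr3 had their highest mean in stromal cells, and Tgfb1 was highest in immune cells. Tgfbr1 had similar levels in stromal and immune cells and lower levels in the other classes.

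**Figure D1:**
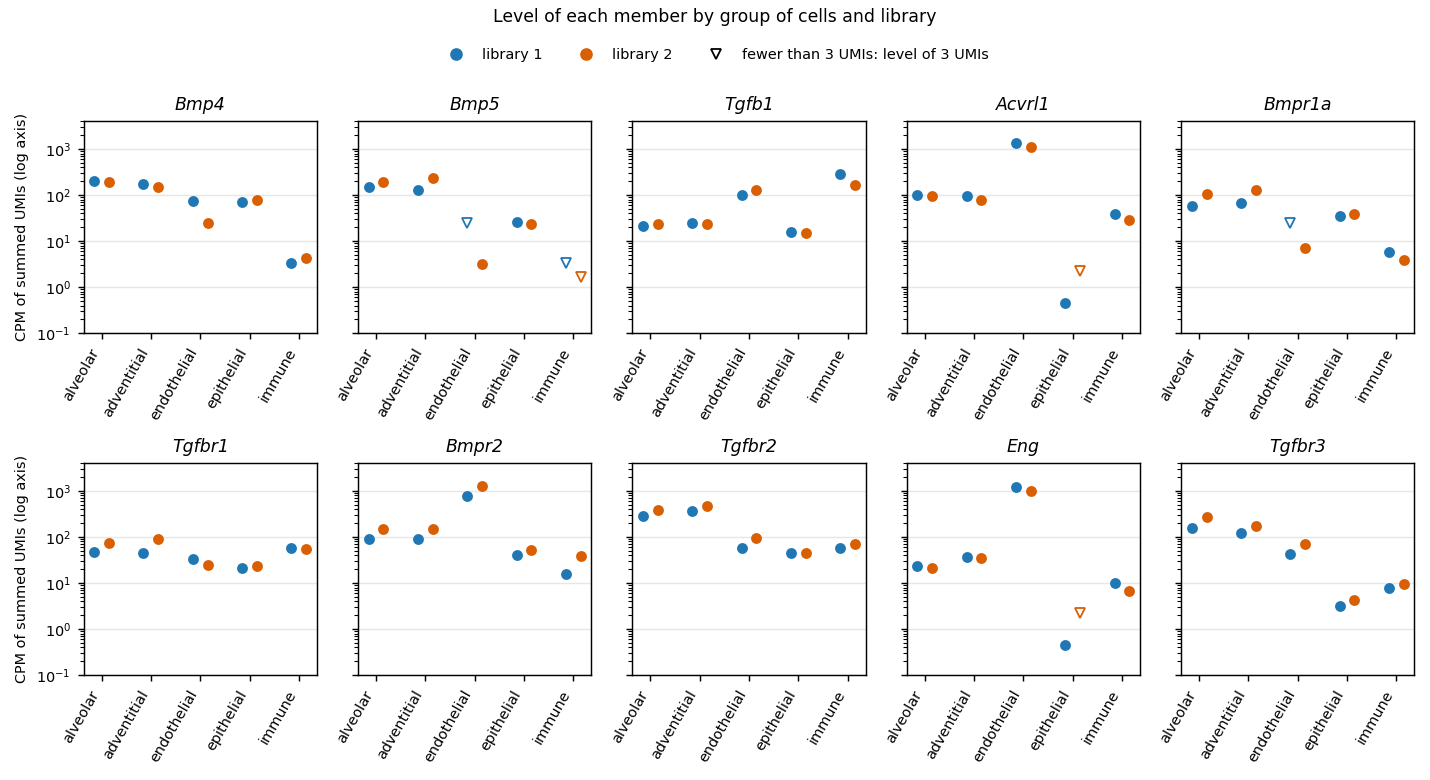
Levels of the 10 genes (CPM of summed UMIs, log axis) in alveolar and adventitial fibroblasts and in endothelial, epithelial and immune cells, 1 point per library (blue, library 1; orange, library 2), with open triangles at the level of 3 UMIs where fewer were counted. Acvrl1, Bmpr2 and Eng stand at 795 CPM or more in endothelial cells of both libraries and at 152 CPM or less elsewhere.

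Endothelial cells differed from stromal cells in all 10 genes, 4 of which were higher and 6 lower, where 14.7% of all genes tested were called higher and 17.4% lower. The median log2 fold change of the 10 genes was -1.74, against -0.12 over all genes tested. Epithelial cells had 0 genes higher and 8 lower than stromal cells (21.8% of all genes were called higher and 24.2% lower), with a median of -1.54 against -0.09. Immune cells had 1 gene higher and 8 lower (23.7% and 27.1% of all genes), with a median of -2.04 against -0.13. Of the comparisons without stromal cells, endothelial cells had 5 genes higher and 3 lower than epithelial cells (20.0% and 19.7% of all genes) and 5 higher and 2 lower than immune cells (18.9% and 18.2%), and epithelial cells had 4 higher and 4 lower than immune cells (24.0% and 23.4%).

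**Figure D2:**
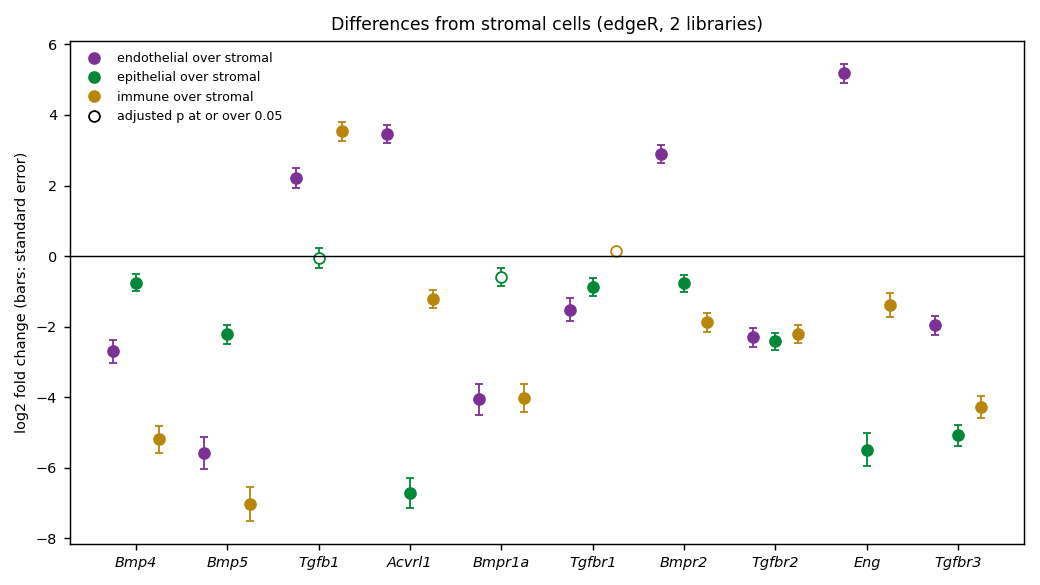
Log2 fold change of each gene in endothelial (purple), epithelial (green) and immune (gold) cells over stromal cells from edgeR, with SE as bars and open circles where the adjusted p was at or over 0.05. Tgfb1, Acvrl1, Bmpr2 and Eng lie above 0 in endothelial cells and Tgfb1 also in immune cells, and no bar is drawn for Tgfbr1 in immune cells, whose p came from edgeR's Poisson limit. The immune point of Bmp5 rests on 3 UMIs.

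Bmp4 and Bmp5, secreted ligands of the BMP branch, were highest in stromal cells. Bmp4 reached 189 and 178 CPM in stromal cells of libraries 1 and 2, 72.6 and 77.6 CPM in epithelial cells, 75.3 and 24.3 CPM in endothelial cells (9 and 45 UMIs) and 3.42 and 4.41 CPM in immune cells (3 and 8 UMIs). The stromal values stood above all others in both libraries. Against stromal cells, Bmp4 was lower in epithelial cells by a log2 change of -0.75 (SE 0.24, adjusted p = 0.0114), in endothelial cells by -2.70 (SE 0.32, adjusted p = 1.73e-07) and in immune cells by -5.20 (SE 0.37, adjusted p = 8.56e-12). The epithelial difference was not called by DESeq2 (adjusted p = 0.261) or without the block for library (adjusted p = 0.120), and the endothelial one was -1.70 in library 1 alone. Endothelial cells were also called lower than epithelial cells (log2 fold change -1.95, SE 0.33, adjusted p = 3.40e-05; -0.89 in library 1 alone and -2.35 in library 2 alone), although in library 1 the CPM of endothelial cells was the higher one. Epithelial cells held Bmp4 at 38.4% and 43.6% of the stromal level. The summed stromal markers outside the rule, Col1a1, Col3a1 and Ptgis, stood in epithelial cells at 0.285% and 0.333% of theirs.

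Bmp5 was more restricted. Its levels were 148 and 204 CPM in stromal cells, 25.8 and 24.2 CPM in epithelial cells, 16.7 and 3.25 CPM in endothelial cells (2 and 6 UMIs) and 2.28 and 0.552 CPM in immune cells (2 and 1 UMIs). Epithelial cells were lower than stromal cells by a log2 change of -2.22 (SE 0.27, adjusted p = 9.86e-08), and endothelial cells by -5.58 (SE 0.46, adjusted p = 2.03e-10). In immune cells, with 3 UMIs in all, the pooled stromal level was 164-fold higher, with a counting interval of 56.2 to 797 (exact binomial, 95%). Endothelial and immune cells could not be told apart (log2 fold change 1.44, SE 0.96, adjusted p = 0.268). In endothelial cells Bmp5 stood at 11.3% and 1.59% of its stromal level. The stromal markers outside the rule, Col1a1, Col3a1 and Ptgis, stood there at 4.49% and 2.46% of theirs. In immune cells Bmp5 stood at 1.54% and 0.271%, where these markers stood at 1.06% and 0.945%. The part of stromal transcripts in these low values was not tested.

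Both ligands were then counted cell by cell. After each cell was thinned to 2000 UMIs, which left out 778 and 43 shallower stromal cells, Bmp4 had a UMI in 30.5% and 29.3% of stromal cells and Bmp5 in 25.3% and 31.3% (49.6% and 64.5%, and 44.0% and 69.4%, before thinning). At least 1 of the ligands was found in 47.8% and 51.6% of thinned stromal cells (95% Clopper-Pearson intervals 46.7% to 49.0% and 50.4% to 52.7%) and both in 7.95% and 9.06%. In epithelial cells, thinned shares of Bmp4 were 14.4% and 13.9%, and at least 1 of the ligands was found in 18.9% and 20.8%. In immune cells, thinned shares of Bmp4 were 0% of 185 cells, which allows up to 1.97%, and 1.29% of 310 cells.

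Tgfb1, the TGF-beta isoform that platelets store and many immune cells secrete, had another order, with immune cells highest. Immune cells held 292 and 164 CPM, endothelial cells 100.4 and 127 CPM (12 and 234 UMIs), stromal cells 22.2 and 24.2 CPM and epithelial cells 15.8 and 15.4 CPM. The immune values lay above the endothelial ones and these above the rest, without overlap. Over stromal cells, Tgfb1 was higher in immune cells by a log2 change of 3.54 (SE 0.27, adjusted p = 2.65e-11; 4.01 in library 1 alone and 3.00 in library 2 alone) and in endothelial cells by 2.22 (SE 0.29, adjusted p = 5.67e-07), and epithelial cells did not differ past the threshold (log2 fold change -0.05, SE 0.29, adjusted p = 0.918). Endothelial cells were below immune cells by -1.32 (SE 0.29, adjusted p = 0.000619), a difference of -2.21 in library 1 alone and -0.75 in library 2 alone. The endothelial level was 34.4% and 77.0% of the immune one, where the immune markers Coro1a, Tyrobp and Lcp1 stood in endothelial cells at 0.486% and 1.42% of theirs.

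The platelet markers Pf4, Ppbp and Gp9 summed to 469.8 and 131 CPM in immune cells, with 2 of the 3 genes at 0 in library 1 and 1 in library 2, and to 0 and 62.2 CPM in endothelial cells. Their part in the Tgfb1 values was not tested. Immune cells with at least 3 UMIs of 1 finer marker set and of no other set were few. Tgfb1 reached 501 and 325 CPM in cells with the alveolar macrophage markers Chil3, Ear1 and Plet1 (11 and 15 cells), 165 and 203 CPM with the macrophage markers C1qa, C1qb and C1qc (41 and 24 cells), 187 and 138 CPM with dendritic cell markers (19 and 36 cells), 180 and 102 CPM with B cell markers (27 and 62 cells), and 83.6 and 82.3 CPM with neutrophil markers (57 and 30 cells). The neutrophil values rest on 7 and 6 UMIs. With T cell markers, 227 and 73.7 CPM were counted (7 and 45 cells, 5 and 16 UMIs). With natural killer (NK) cell markers, 139 and 62.5 CPM were counted (5 and 22 cells, 1 and 5 UMIs). In thinned cells, Tgfb1 had a UMI in 43.2% and 21.9% of immune cells, 7.69% and 19.9% of endothelial cells and 4.27% and 4.80% of stromal cells.

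Acvrl1 encodes ALK1, a type I receptor that binds BMP9 and BMP10 on endothelium. Endothelial cells held 1364 and 1109 CPM, stromal cells 95.9 and 90.4 CPM, immune cells 38.8 and 28.7 CPM (34 and 52 UMIs) and epithelial cells 0.462 and 1.46 CPM (4 and 2 UMIs). The classes did not overlap, and all neighbours in this order differed. Endothelial cells were above stromal cells by a log2 change of 3.47 (SE 0.26, adjusted p = 2.83e-11), immune cells were below stromal cells by -1.22 (SE 0.27, adjusted p = 0.000449), and epithelial cells were below immune cells by -5.49 (SE 0.47, adjusted p = 3.70e-10). Immune cells held Acvrl1 at 2.84% and 2.59% of the endothelial level.

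The stromal level of Acvrl1 was 7.03% and 8.15% of the endothelial one, where the endothelial markers Plvap, Cldn5 and Emcn stood in stromal cells at 0.0448% and 0.0942% of their endothelial level. Acvrl1 had a UMI in 88.5% and 91.3% of thinned endothelial cells (26 and 312 cells), in 17.6% and 17.4% of stromal cells and in 0.216% and 0% of epithelial cells. Stromal cells carried 83.5% of all Acvrl1 UMIs of library 1 and 25.7% of those of library 2. Barcodes that met the rule for more than 1 class carried 10.4% and 64.0%. Within endothelial cells, those with the aerocyte markers Car4, Ednrb and Tbx2 held 1866 and 1761 CPM (10 and 27 cells, 50 and 242 UMIs). Those with the general capillary markers Gpihbp1, Plvap and Ptprb held 1203 and 1009 CPM (43 and 231 cells). The aerocyte markers summed to 1640 and 1173 CPM in endothelial cells and also to 255 and 222 CPM in stromal cells. The part of stromal transcripts in the aerocyte set was not tested. Cells with macrophage markers held 108 and 65.5 CPM (17 and 10 UMIs), and those with dendritic cell markers 44.5 and 47.8 CPM (5 and 17 UMIs). Cells with alveolar macrophage markers held 0 and 6 UMIs, and those with T cell markers 0 and 4 UMIs. B cells and neutrophils held 0 UMIs in both libraries, where 3 UMIs would have stood for 14.6 to 45.0 CPM. NK cells also held 0 UMIs, where 3 UMIs would have stood for 416 and 37.5 CPM.

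Bmpr1a encodes ALK3, the type I receptor that pairs with Bmpr2 for Bmp4. It was low in endothelial cells, with 0 and 13 UMIs (0 and 7.03 CPM), and stood at 60.2 and 113 CPM in stromal cells, 34.4 and 38.1 CPM in epithelial cells and 5.70 and 3.86 CPM in immune cells (5 and 7 UMIs). The highest endothelial value lay below the lowest epithelial one, and the level that 3 UMIs give in library 1, 25.1 CPM, was also below the stromal value of that library. Endothelial cells were lower than stromal cells by a log2 change of -4.05 (SE 0.44, adjusted p = 2.90e-08) and immune cells by -4.02 (SE 0.40, adjusted p = 4.52e-09; -3.10 in library 1 alone and -4.63 in library 2 alone), and these classes did not differ from each other past the threshold (log2 fold change -0.03, SE 0.66, adjusted p = 0.995). Epithelial and stromal cells fell just short of the threshold (log2 fold change -0.60, SE 0.26, adjusted p = 0.0615; -0.24 in library 1 alone and -1.02 in library 2 alone), and were called apart without the filter on low counts (adjusted p = 0.0293).

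Tgfbr1 encodes ALK5, the type I receptor for TGF-beta. Its levels were 46.8 and 78.1 CPM in stromal cells, 57.0 and 56.3 CPM in immune cells (50 and 102 UMIs), 33.5 and 24.9 CPM in endothelial cells (4 and 46 UMIs) and 21.5 and 23.4 CPM in epithelial cells. Immune and stromal values overlapped (log2 fold change 0.15, adjusted p = 0.976; 0.59 in library 1 alone and -0.23 in library 2 alone). Endothelial cells were below stromal cells by -1.52 (SE 0.33, adjusted p = 0.000644; -0.86 in library 1 alone), and epithelial cells by -0.86 (SE 0.26, adjusted p = 0.00722), a difference that DESeq2 did not call (adjusted p = 0.0623). Endothelial and epithelial cells did not differ past the threshold (log2 fold change -0.65, SE 0.36, adjusted p = 0.166), and both were below immune cells, by -1.67 (SE 0.35, adjusted p = 0.000449) and -1.01 (SE 0.28, adjusted p = 0.00448). Cells with macrophage markers held 146 and 131 CPM (23 and 20 UMIs), and those with alveolar macrophage markers 38.5 and 147 CPM (2 and 23 UMIs).

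Bmpr2, the BMP type II receptor, was the second endothelial gene. It stood at 795 and 1301 CPM in endothelial cells, 90.7 and 149.9 CPM in stromal cells, 39.8 and 52.0 CPM in epithelial cells and 16.0 and 38.1 CPM in immune cells (14 and 69 UMIs). No class overlapped with another. Endothelial cells were above stromal cells by a log2 change of 2.88 (SE 0.25, adjusted p = 6.12e-10), epithelial cells below stromal cells by -0.77 (SE 0.24, adjusted p = 0.0102) and above immune cells by 1.11 (SE 0.29, adjusted p = 0.00230). These last differences were not called without the block for library (adjusted p = 0.131 and 0.0903). The stromal level was 11.4% and 11.5% of the endothelial one. Thinned shares were 65.4% and 88.5% of endothelial cells, 16.2% and 24.2% of stromal cells and 9.31% and 11.9% of epithelial cells. Cells with aerocyte markers (747 and 1317 CPM) and general capillary markers (798 and 1366 CPM) had like values within each library.

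Tgfbr2, the TGF-beta type II receptor, was foremost a stromal transcript. Stromal cells held 304 and 421 CPM, endothelial cells 58.6 and 96.9 CPM (7 and 179 UMIs), immune cells 58.2 and 71.2 CPM and epithelial cells 45.1 and 43.9 CPM. Each of the other classes was below stromal cells, by a log2 change of -2.30 in endothelial (SE 0.27, adjusted p = 1.58e-07), -2.20 in immune (SE 0.25, adjusted p = 4.32e-08) and -2.42 in epithelial cells (SE 0.25, adjusted p = 5.37e-09). Among these other classes the differences did not pass the threshold, with log2 fold changes of 0.11 (SE 0.29, adjusted p = 0.812; -0.56 in library 1 alone and 0.46 in library 2 alone) for endothelial over epithelial, -0.10 (SE 0.29, adjusted p = 0.839) for endothelial over immune and -0.21 (SE 0.26, adjusted p = 0.534) for epithelial over immune cells. A UMI was found in 42.4% and 52.9% of thinned stromal cells and in 7.69% and 14.1% of endothelial cells. Cells with the myofibroblast markers Hhip, Aspn and Fgf18 held 519 and 537 CPM (63 and 200 cells). Those with the adventitial markers Pi16, Dpp4 and Ly6c1 held 439 and 623 CPM (108 and 22 cells). Smooth muscle markers went with 320 and 481 CPM, and pericyte markers with 364 and 273 CPM (3 and 17 UMIs). Cells with macrophage markers held 127 and 177 CPM (20 and 27 UMIs).

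Eng, the coreceptor that acts with Acvrl1, had the largest log2 change among the 4 genes that were higher in endothelial than in stromal cells. Endothelial cells held 1196 and 1019 CPM, stromal cells 26.4 and 24.8 CPM, immune cells 10.3 and 6.62 CPM (9 and 12 UMIs) and epithelial cells 0.462 and 0 CPM (4 and 0 UMIs, where 3 UMIs stood for 2.20 CPM in library 2). Classes did not overlap. The log2 fold change of endothelial over stromal cells was 5.18 (SE 0.27, adjusted p = 3.87e-14), immune cells were below stromal cells by -1.40 (SE 0.34, adjusted p = 0.00128) and epithelial cells below immune cells by -4.09 (SE 0.63, adjusted p = 6.19e-06). Immune cells held Eng at 0.858% and 0.649% of the endothelial level, where Plvap, Cldn5 and Emcn stood at 0.0154% and 0.165% of theirs. Cdh5, Pecam1 and Egfl7, which the rule itself holds low in immune cells, stood there at 0.284% and 0.613%. The part of endothelial transcripts in the immune values was not tested. Thinned endothelial cells had a UMI in 80.8% and 84.6% (95% Clopper-Pearson intervals 60.6% to 93.4% and 80.1% to 88.4%) and stromal cells in 4.89% and 4.68%. Stromal Eng was 2.20% and 2.43% of the endothelial level, above the 0.0448% and 0.0942% of the endothelial markers. Unlike Acvrl1, the general capillary set (1307 and 1042 CPM) stood above the aerocyte set (933 and 866 CPM) in both libraries, a difference that was not tested.

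Tgfbr3, or betaglycan, the coreceptor that binds TGF-beta without a kinase of its own, followed the stromal pattern. Stromal cells held 148 and 247 CPM, endothelial cells 41.8 and 70.3 CPM (5 and 130 UMIs), immune cells 7.98 and 9.38 CPM (7 and 17 UMIs) and epithelial cells 3.12 and 4.39 CPM (27 and 6 UMIs). The endothelial level was 28.3% and 28.5% of the stromal one, where Col1a1, Col3a1 and Ptgis stood in endothelial cells at 4.49% and 2.46%. Endothelial cells were below stromal cells by a log2 change of -1.96 (SE 0.27, adjusted p = 1.83e-06) and above immune cells by 2.32 (SE 0.36, adjusted p = 9.71e-06). Epithelial and immune cells did not differ past the threshold (log2 fold change -0.81, SE 0.43, adjusted p = 0.128).

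Cells that held UMIs of several of these genes at once were also counted. After thinning, Acvrl1, Bmpr2 and Eng each had a UMI in 42.3% of 26 endothelial cells of library 1 (95% interval 23.4% to 63.1%) and in 70.8% of 312 in library 2 (65.4% to 75.8%), against 0.131% and 0.216% of stromal cells and 0% of 924 and 101 epithelial cells, which allows up to 0.398% and 3.59%. The TGF-beta kinases Tgfbr1 and Tgfbr2 were both found in 3.66% and 7.57% of stromal cells, 0% and 0.962% of endothelial cells and 0.541% and 1.94% of immune cells. Bmpr1a with Bmpr2 were both found in 1.91% and 4.60% of stromal cells and in 0% and 1.28% of endothelial cells. Whether genes met in a cell more often than their single shares alone would give was not tested. A cell without a UMI at this depth may still have expressed the gene.

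**Figure D3:**
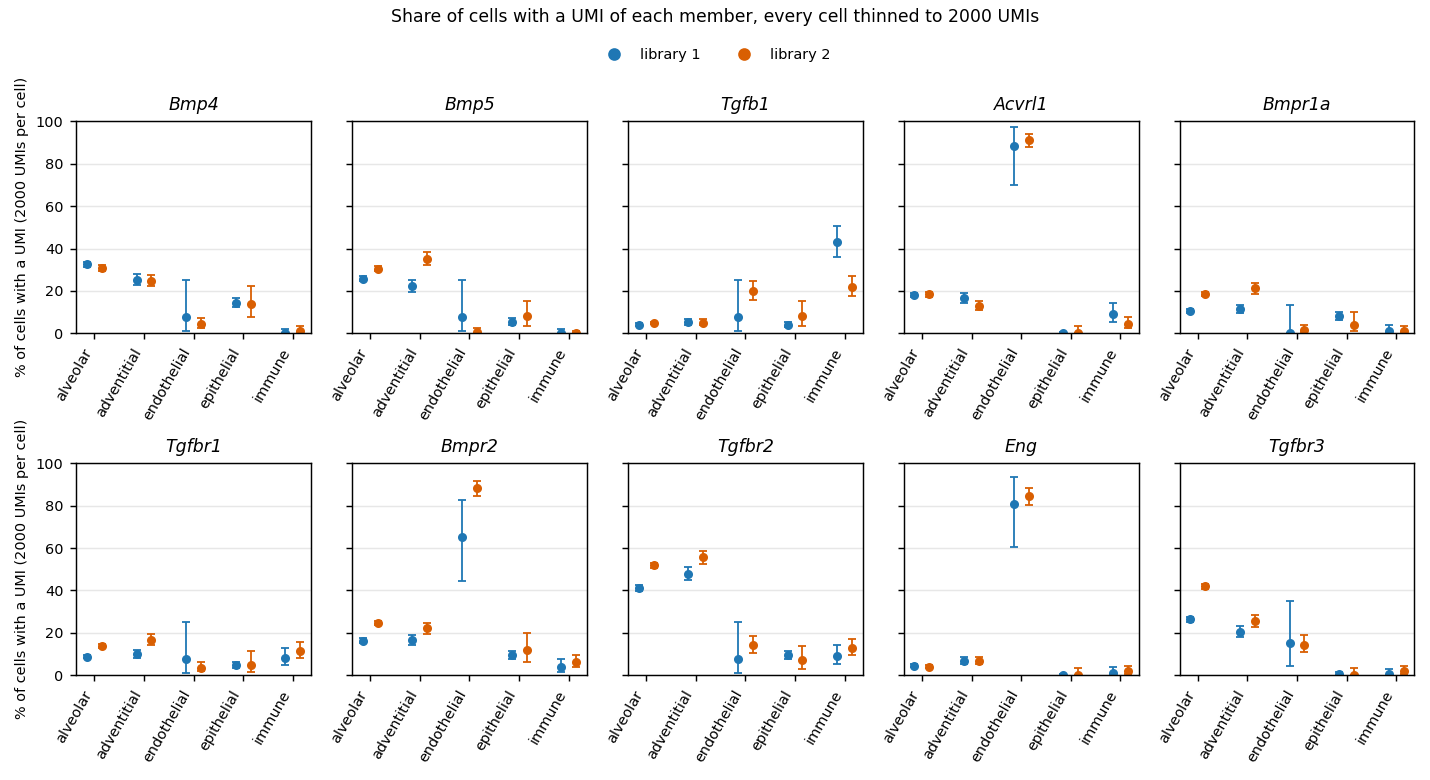
Share of cells with at least 1 UMI of each gene after every cell was thinned to 2000 UMIs, by group and library (blue, library 1; orange, library 2), with 95% Clopper-Pearson intervals that cover counting error only. Acvrl1 reached 88.5% and 91.3% of endothelial cells and Eng 80.8% and 84.6%, and the wide intervals of library 1 reflect its 26 thinned endothelial cells.

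Adventitial and alveolar fibroblasts were split by raw Dcn UMIs, and 823 and 895 stromal cells with 1 or 2 such UMIs were in neither group. Median depth was 6034 and 10655.5 UMIs per cell in adventitial fibroblasts, against 3958 and 6545 in alveolar fibroblasts. The part of depth in the comparison was not tested. The fibroblast groups differed little in the 10 genes. Of the 10, only Eng was called, higher in adventitial fibroblasts, where 5.76% of 13326 genes tested were called higher and 2.95% lower. The median log2 fold change of the 10 genes was 0.07, against -0.03 over all genes. Eng stood at 37.4 and 35.2 CPM in adventitial and 23.6 and 21.6 CPM in alveolar fibroblasts, without overlap, a log2 change of 0.72 (SE 0.20, adjusted p = 0.0312). The call was lost with DESeq2 (adjusted p = 0.226) and without the block for library (adjusted p = 0.448).

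Tgfbr3 ran the other way in both libraries, at 124 and 178 CPM in adventitial against 157 and 271 CPM in alveolar fibroblasts, and did not pass the threshold (log2 fold change -0.45, SE 0.18, adjusted p = 0.172). Tgfbr2 stood at 363 and 478 CPM in adventitial and 282 and 396 CPM in alveolar fibroblasts (log2 fold change 0.34, SE 0.20, adjusted p = 0.421). Bmp5 changed sides, with 126 and 233 CPM in adventitial and 154 and 194 CPM in alveolar fibroblasts (log2 fold change 0.04, SE 0.23, adjusted p = 0.964). Bmp4 reached 178 and 147 CPM in adventitial and 198 and 189 CPM in alveolar fibroblasts, lower in adventitial cells within each library and not called (log2 fold change -0.23, SE 0.20, adjusted p = 0.642). The other genes had log2 fold changes between -0.15 and 0.25.

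**Figure D4:**
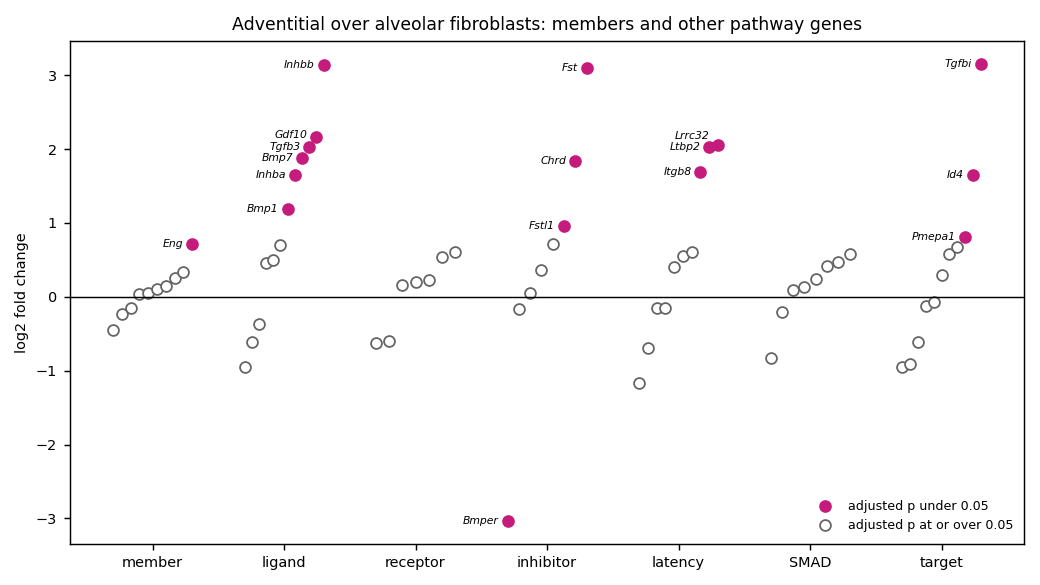
Log2 fold change of adventitial over alveolar fibroblasts for the 10 genes (member) and for the other pathway genes tested, by role, with filled circles where the adjusted p from edgeR was under 0.05. Eng is the only filled circle among the 10. Of the other pathway genes, 15 are higher and Bmper alone is lower (5.76% and 2.95% of all genes tested).

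The libraries differed more in some of the 10 genes than in others. In stromal cells the ratio of library 2 to library 1 was 1.87 for Bmpr1a, 1.67 for Tgfbr1, 1.67 for Tgfbr3, 1.65 for Bmpr2, 1.39 for Tgfbr2 and 1.37 for Bmp5. It was 1.09 for Tgfb1 and 0.94 for each of Bmp4, Acvrl1 and Eng, where the median ratio over 8183 genes averaging 10 CPM or more was 1.09. Alveolar fibroblasts alone gave ratios of 1.84 for Bmpr1a and 0.91 for Eng. These ratios compare 2 libraries and have no replicate check.

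Other genes of the pathway were taken from a list of 64, of which 49 passed the filter on low counts between classes. In endothelial against stromal cells, 10 were higher and 21 lower (14.7% and 17.4% of all genes tested). The BMP ligand Bmp6 was an endothelial transcript, with 251 and 228 CPM in endothelial cells and 0.381 and 0.375 CPM in stromal cells (log2 fold change 9.03, SE 0.37, adjusted p = 4.42e-16). Smad6, an inhibitory SMAD induced by BMP signals, was higher (259 and 468 CPM against 5.57 and 5.07 CPM, log2 fold change 5.94, SE 0.32), as were the target gene Hey1 (117 and 109 CPM against 3.08 and 2.93 CPM, log2 fold change 5.01, SE 0.38) and Nrros, which tethers latent TGF-beta to the cell surface (58.6 and 26.5 CPM against 0.674 and 0.512 CPM, log2 fold change 5.77, SE 0.40). Of the 11 target and feedback genes, 3 were higher (Id1, Id2 and Hey1), 2 lower and 6 not called. The ligands Gdf2 and Bmp10, which encode BMP9 and BMP10, did not pass the filter.

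The extracellular inhibitors Chrdl1, Fstl1, Fstl3, Bmper and Twsg1 were each lower in endothelial, epithelial and immune cells than in stromal cells. Bmper, a secreted modulator of BMP, had 45.6 and 47.3 CPM in stromal cells and 1 UMI in all endothelial cells, a pooled ratio of 91.8 (counting interval 16.5 to 3629). Gdf10, a BMP3-like ligand, had 17.7 and 33.6 CPM in stromal cells and 0 UMIs in endothelial, epithelial and immune cells of both libraries, so that stromal cells were at least 18.2-fold, 92.6-fold and 24.9-fold higher, taking 3 UMIs over both libraries as the floor. Bmp3 (174 and 134 CPM in stromal, 0 and 4.33 CPM in endothelial cells, log2 fold change -5.26, SE 0.44) and Thbs1, an activator of latent TGF-beta (965 and 1042 CPM in stromal, 0 and 34.1 CPM in endothelial cells, log2 fold change -5.02, SE 0.63), were also lower in endothelial cells.

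In epithelial against stromal cells, 9 of the 49 genes were higher and 27 lower (21.8% and 24.2% of all genes tested). Bmp1, a procollagen protease despite its name, rose to 105 and 258 CPM from 15.5 and 18.0 CPM (log2 fold change 3.85, SE 0.27, adjusted p = 3.55e-12), and Id2, a target of BMP signals, stood at 170 and 143 CPM against 18.8 and 8.57 CPM (log2 fold change 4.08, SE 0.37). Bmp2 (16.1 and 16.8 CPM against 3.81 and 4.20 CPM) and Gdf15 (27.1 and 24.2 CPM against 17.8 and 3.05 CPM) were higher with log2 fold changes of 2.54 (SE 0.47) and 2.05 (SE 0.47). The secreted glycoprotein gene Fstl1 (0.462 and 0.732 CPM against 210.0 and 234 CPM) and Ltbp1, which holds latent TGF-beta in the matrix (0.462 and 0.732 CPM against 128 and 242 CPM), were lower with log2 fold changes of -8.12 (SE 0.39) and -7.64 (SE 0.40). Bmper had 1 UMI in epithelial cells, a pooled ratio of 468 in favour of stromal cells (counting interval 83.9 to 18471).

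In immune against stromal cells, 4 genes were higher and 36 lower (23.7% and 27.1% of all genes tested). Those higher were Nrros (181 and 91.6 CPM against 0.674 and 0.512 CPM, log2 fold change 8.02, SE 0.34), the TGF-beta induced matrix gene Tgfbi (202 and 170 CPM against 1.88 and 1.19 CPM, log2 fold change 7.22, SE 0.33), Id2 (157 and 398 CPM, log2 fold change 4.64, SE 0.39) and Skil, a repressor of SMADs (203 and 143 CPM against 94.5 and 80.9 CPM, log2 fold change 1.25, SE 0.25). Chrdl1 and Rgma had 0 UMIs in immune cells of both libraries, and stromal cells were at least 59.6-fold and 19.7-fold higher.

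Between the classes other than stromal, endothelial cells had 18 of the 49 genes higher and 13 lower than epithelial cells (20.0% and 19.7% of all genes tested). Bmp6 was 767-fold higher by pooled levels (counting interval 261 to 3733), Hey1 547-fold (150 to 4548) and Lrrc32, which presents latent TGF-beta, 222-fold (74.4 to 1092), and Fstl1 had a log2 change of 5.63 (SE 0.50). Bmp1, Bmp3, Ltbp3 and Smad3 were lower, with log2 fold changes from -4.38 to -2.83. Against immune cells, 23 genes were higher and 7 lower (18.9% and 18.2% of all genes tested). Id1, the classic early target of BMP signals, stood at 293 and 1204 CPM in endothelial and 11.4 and 12.1 CPM in immune cells (log2 fold change 5.53, SE 0.44, adjusted p = 1.62e-10), Smad6 was 408-fold (139 to 1984), Bmp6 618-fold (110.4 to 24461) and Hey1 147-fold higher (40.2 to 1221), and Tgfbi was 178-fold lower (48.9 to 1472). Id2 and Nrros were lower with log2 fold changes of -3.15 and -2.25. Thbs1 was called lower (log2 fold change -2.22, SE 0.66, adjusted p = 0.00945), but the libraries ran opposite ways, since endothelial cells of library 1 held 0 CPM against 318 CPM for immune cells, and those of library 2 held 34.1 CPM against 23.7 CPM. Epithelial cells had 16 genes higher and 8 lower than immune cells (24.0% and 23.4% of all genes tested). Bmp1 was 169-fold higher (46.6 to 1395), and Bmp3, Ltbp3 and Bmp2 had log2 fold changes of 4.62, 4.52 and 2.79. Nrros, Tgfbi and Skil were lower, from -6.35 to -1.47. Thbs1 was also called lower (log2 fold change -1.53, SE 0.55, adjusted p = 0.0246), from library 1 alone, where epithelial cells held 50.2 CPM and immune cells 318 CPM, against 27.8 and 23.7 CPM in library 2.

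Adventitial fibroblasts differed from alveolar fibroblasts more in other pathway genes than in the 10 genes described. Of 56 tested, 15 were higher, 1 lower and 40 not called, where 5.76% of all genes tested were higher and 2.95% lower. The difference between the lists was not tested. The ligands Gdf10 (40.5 and 77.0 CPM against 9.77 and 16.6 CPM, log2 fold change 2.16, SE 0.20, adjusted p = 5.18e-06) and Tgfb3 (130.2 and 78.7 CPM against 29.8 and 21.1 CPM, log2 fold change 2.03, SE 0.23) were higher, as were Lrrc32 (79.5 and 66.1 CPM against 18.5 and 17.2 CPM, log2 fold change 2.05, SE 0.21) and Ltbp2, a matrix protein of the latent TGF-beta binding family (56.7 and 31.9 CPM against 7.85 and 14.2 CPM, log2 fold change 2.02, SE 0.32). Bmper was lower (6.00 and 8.46 CPM against 59.5 and 61.8 CPM, log2 fold change -3.03, SE 0.22). By role, 6 of 12 ligands, 3 of 8 inhibitors, 3 of 10 genes of TGF-beta latency and 3 of 11 targets were higher, and 0 of 7 receptors and 0 of 8 SMADs were called.

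**Figure D5:**
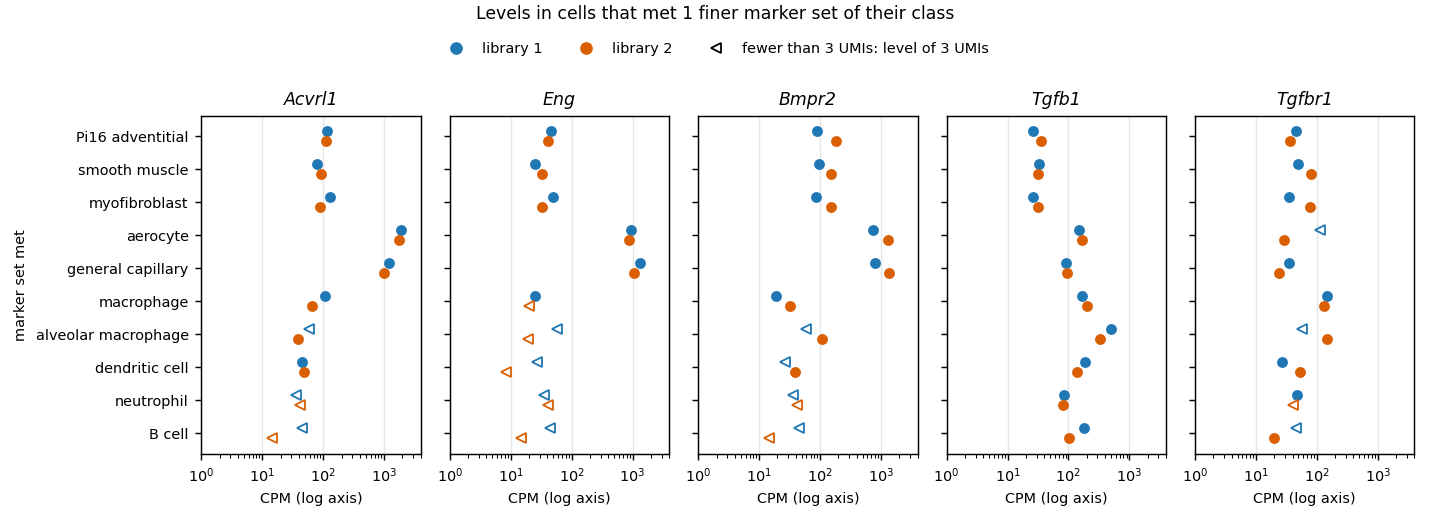
Levels of Acvrl1, Eng, Bmpr2, Tgfb1 and Tgfbr1 (CPM, log axis) in cells with at least 3 UMIs of 1 finer marker set of their class and of no other set, 1 point per library (blue, library 1; orange, library 2), with open triangles at the level of 3 UMIs where fewer were counted. Acvrl1 stood at 1866 and 1761 CPM in the aerocyte set, and Tgfb1 at 501 and 325 CPM in the alveolar macrophage set.

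The levels of the 10 genes over 10 sums (5 groups of cells in 2 libraries) gave the likeness of their patterns as Pearson's r of log2(CPM + 1), a description over sums that share libraries. Acvrl1 and Eng were most alike (r = 0.97), followed by Bmp4 with Bmp5 (0.93), Tgfbr2 with Tgfbr3 (0.91) and Bmpr2 with Eng (0.87). Tgfb1 ran against Bmp4 (-0.86), Bmp5 (-0.81) and Bmpr1a (-0.79). The search covered 3060 genes whose mean was 50 CPM or higher. The pattern nearest to Acvrl1 was that of Nostrin (0.990), nearest to Eng that of Zcrb1 (0.984) and nearest to Bmpr2 that of Smurf2 (0.9895). Tgfbr2 was nearest to Gas1 (0.990) and Col1a2 (0.988). Col1a2 is a stromal marker of the rule, so its contrast between classes was fixed in part by the rule. Tgfbr3 was nearest to the latent TGF-beta binding gene Ltbp1 (0.989) and Bmpr1a to Ltbp3 (0.978). Bmp4 was nearest to Gaa (0.980) and Bmp5 to Bicc1 (0.982). Tgfb1 was nearest to Pitpna (0.990) and Tgfbr1 to Rgs2 (0.953).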

How the data were processed

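UV-positive lung cells were sequenced as 2 libraries. The authors deposited raw UMI counts per gene and barcode, made with Cell Ranger 5.0.1 on mm10 per the labels, with no normalization. The 10 genes and the marker and pathway lists were chosen with earlier results of these data known. UMIs were summed per class and library and tested with edgeR 4.0.16 under R 4.3.3 (TMM scaling, filterByExpr, quasi-likelihood test with the library as block). The block follows from the design, since the classes of a library came from the same sorted cells. Classes were fitted on 8 sums and fibroblast groups on 10 sums. The SE is the log2 fold change divided by the square root of F. No doublet caller was run. The fit was tested on simulated data. Named pathway genes are, per comparison and direction, the 4 called genes with the largest change at a mean of at least 10 CPM, of which 1 is not reported here. P-values measure only how far differences between groups varied between these 2 libraries, which may be technical, with a spread borrowed over genes. The block takes up a shift between libraries that all groups share. Intervals and floors of 3 UMIs cover counting error only. The alternatives tried were DESeq2 1.42.0, RLE size factors, no filter, no block, stricter marker and mitochondrial limits, cells with 0 UMIs of other classes' markers, and each library alone.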

Additional observations from a re-analysis of the deposited data

How the results depend on the processing

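Of 490 fold changes of the 10 genes recomputed with a test under 7 alternatives, 482 kept their side of the threshold, 7 lost their call and 1 gained it. Where either fit called the gene, 0 reversed. Changes of direction where neither fit called the gene were not counted. The pairing of classes by library, used as a replicate block, mattered most between fibroblasts: without the block, 207 of all genes were higher and 47 lower in adventitial fibroblasts, against 768 and 393 with it, and DESeq2 gave 374 and 146. The count of the 10 genes higher in adventitial fibroblasts went from 1 to 0 under both. The counts of calls between classes stayed within 1.5 times of those reported under all alternatives that could be fitted. With a single library there is no test, so only fold changes were recomputed, with none where a group held 3 or fewer UMIs. These 2 libraries, 56 endothelial cells in library 1 and 101 epithelial cells in library 2 set the precision.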

Other observations

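Barcodes that met both the stromal and the endothelial rule held 456 and 662 CPM of Acvrl1, 459.6 and 641 CPM of Eng and 375 and 976 CPM of Bmpr2, between the stromal and the endothelial levels in both libraries, and 189.7 and 220.2 CPM of Tgfbr2. Those that met both the stromal and the immune rule held 147 and 96.7 CPM of Tgfb1. These barcodes entered no comparison.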
